A study of Mus musculus with 12 samples.

Results

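Cardiac fibroblast genes and the genes of the non-collagen extracellular matrix were followed in the heart ventricle of mice sired by males with a neonatal heart injury. The set holds 39 genes named by symbol, out of 78317 gene IDs in the count table. It was drawn up by role and without a threshold on any measured value: 12 fibroblast identity genes, 6 genes of activated fibroblasts and matricellular proteins, 5 proteoglycans, 6 fibre and adhesion glycoproteins, 3 crosslinkers, 4 proteases or protease inhibitors and 3 TGF-beta ligands. The genes were chosen with earlier results of these data known. All 39 were found in the table, and all 39 passed the filter on low counts.

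The injured-sire group consisted of 6 C57BL/6J offspring whose fathers had received a cardiac cryoinjury, a local freezing of the heart wall, on postnatal day 1. The uninjured-sire group consisted of 6 C57BL/6J offspring of males without that injury. The offspring themselves were not injured, and no transgene or drug was named in either group. Hearts were collected at 3 wpp, an age the labels give for weaning although they also call the offspring adult, and ventricle was snap-frozen; total RNA was sequenced in bulk. The injured-sire group held 3 males and 3 females and the uninjured-sire group 4 males and 2 females, without a statement of which animal was which. The labels named no sire or litter for any animal, so each p-value below measures the spread between these animals only. The submitters set injured-sire replicate 16 aside as an outlier in a principal component plot. The comparison therefore rests on 5 injured-sire and 6 uninjured-sire libraries, and replicate 16 is given separately.

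Cardiac fibroblasts make and maintain the matrix that holds the heart muscle together. They secrete collagens together with the proteins measured here: proteoglycans that bind and space collagen fibrils, elastin and fibrillin that form elastic fibres, and glycoproteins such as fibronectin to which cells attach. Lysyl oxidases crosslink these fibres, and metalloproteases and their inhibitors set how fast they are removed. TGF-beta ligands, stored in the matrix in a latent form, are the classical inducers of matrix production when fibroblasts become activated after injury. In whole ventricle RNA, fewer fibroblasts and less RNA of a gene per fibroblast cannot be told apart.

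Total counts were between 30537315 and 42090257 per library. Levels are given as CPM, the count scaled to a library of 1000000 counts with TMM-scaled library sizes. Cardiomyocyte markers, led by Myh6 and Tnnt2, summed to 61689–72234 CPM in injured-sire and 57708–67116 CPM in uninjured-sire libraries. These markers are shared by atrial and ventricular muscle. Fibroblast genes used as markers, such as Pdgfra, Dcn and Gsn, had counts in every library.

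None of the 39 genes passed the test between injured-sire and uninjured-sire offspring after adjustment over all genes. The smallest adjusted p among them was 0.175, for Comp, in edgeR's quasi-likelihood test with Benjamini-Hochberg adjustment. Among all 17130 genes tested, 18 passed an adjusted p of 0.05, which is 0.105%. At an unadjusted p below 0.05 in the same test stood 8 of the 39 genes, 4 with higher means in injured-sire libraries (Tgfb2, Postn, Fn1 and Mfap5; background 4.28%) and 4 with lower means (Comp, Dcn, Smoc2 and Mmp14; background 4.68%). That is 20.5% of the set, against 8.96% of all genes tested and 1376 of the 13759 genes within the set's own range of mean levels. Because the members were chosen with earlier results of these data known, these shares are a description and not a test of the set. The injured-sire and uninjured-sire values did not overlap for 1 gene, Comp, which was lower in injured-sire libraries. Among all genes tested, 1.06% had groups that did not overlap, 0.432% with injured-sire values higher and 0.625% with them lower. With all 12 libraries, replicate 16 included, none of the 39 genes passed the adjusted threshold (background 0.0836%) and 7 had an unadjusted p below 0.05 in edgeR's test (background 8.17%). These were not all the same genes: Fn1, Smoc2 and Mmp14 were no longer below 0.05, while Fbln1 and Mfap4 were.

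The set had no common direction. The log2 fold change, injured-sire over uninjured-sire, was above 0 for 24 genes and below 0 for 15, with a median of 0.03 over the set and 0.0002 over all genes tested. The median absolute log2 fold change was 0.0936 in the set and 0.109 over all genes. The spread between animals was like that of other genes at these levels: the within-group SD of log2 CPM had a median of 0.163, between 0.0563 for Fbln1 and 0.479 for Thbs1, against 0.165 over the genes of the same level range. The 95% confidence interval of a member's log2 fold change reached a median of 0.17 to either side. By role, the median log2 fold change was 0.04 for the TGF-beta ligands, 0.02 for fibroblast identity genes, 0.16 for activated fibroblast and matricellular genes, -0.06 for proteoglycans, 0.13 for fibre and adhesion glycoproteins, 0.04 for crosslinkers and -0.02 for proteases and inhibitors.

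**Figure D1:**
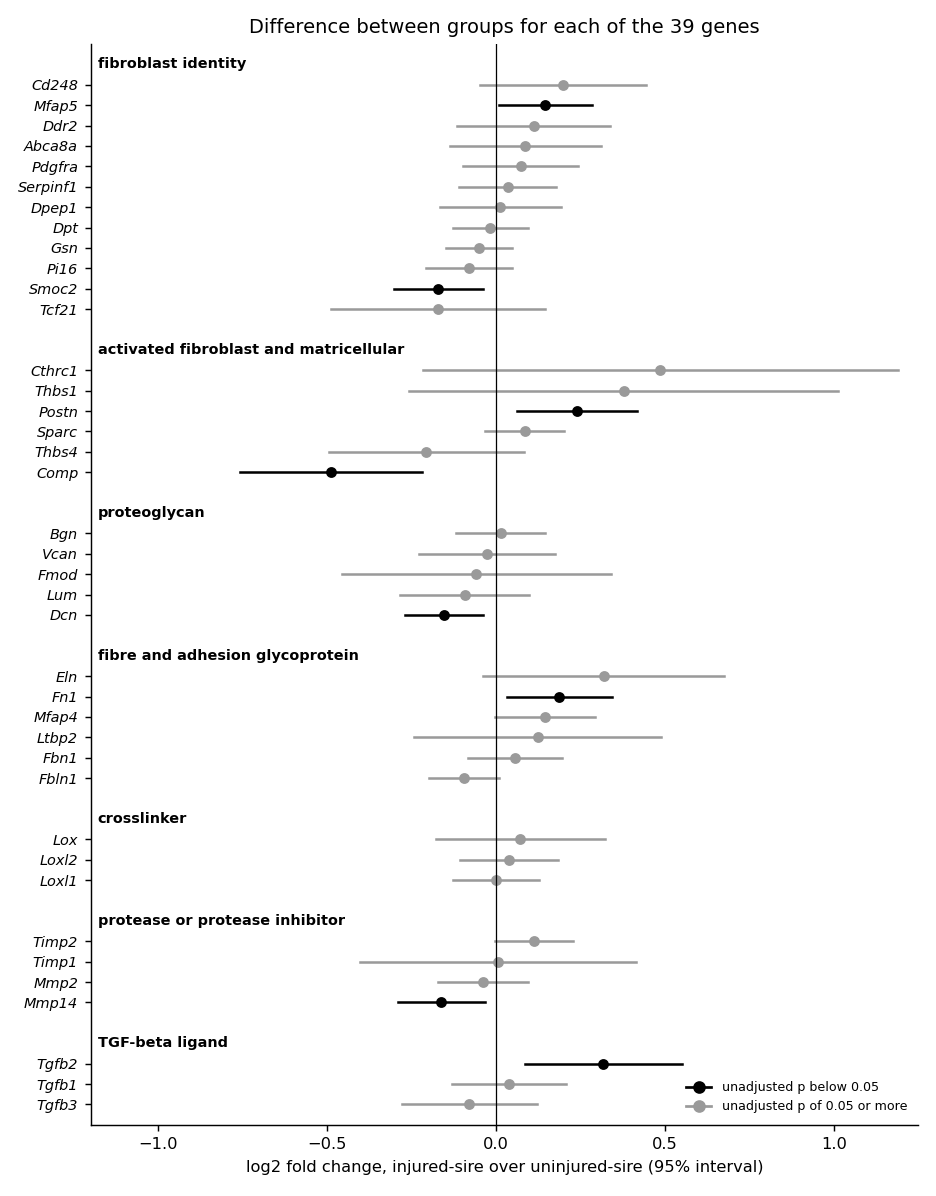
Log2 fold change (horizontal axis, injured-sire over uninjured-sire, 5 against 6 libraries) of each of the 39 genes, grouped by role, with 95% confidence intervals from edgeR's quasi-likelihood fit. The intervals of 8 genes do not cross 0, 4 on each side, and none of the 39 passed an adjusted p of 0.05.

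The TGF-beta ligands stand upstream of the matrix genes. Of the 3 ligands, Tgfb2 had the smallest p. The start regions of Tgfb2 and Tgfb1 are shown because these ligands had the largest and the smallest absolute difference of the 3. Each window runs from 250 bases before to 50 bases after the annotated transcription start, in the direction of the gene, from RefSeq on GRCm38.p6. The window is chr1:186705940-186706239 on the minus strand for Tgfb2 and chr7:25686752-25687051 on the plus strand for Tgfb1. Capitals mark matches to CACGTG (an E-box), TATAAA (the box of TATA-binding protein) or CAGAC (the core letters bound by Smad proteins), searched on both strands.
Tgfb2: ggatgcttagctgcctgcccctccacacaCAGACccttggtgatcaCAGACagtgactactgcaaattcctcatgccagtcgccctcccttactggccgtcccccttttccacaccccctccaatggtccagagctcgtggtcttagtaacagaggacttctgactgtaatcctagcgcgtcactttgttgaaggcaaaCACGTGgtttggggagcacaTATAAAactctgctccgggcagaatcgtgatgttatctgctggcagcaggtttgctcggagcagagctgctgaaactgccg
Tgfb1: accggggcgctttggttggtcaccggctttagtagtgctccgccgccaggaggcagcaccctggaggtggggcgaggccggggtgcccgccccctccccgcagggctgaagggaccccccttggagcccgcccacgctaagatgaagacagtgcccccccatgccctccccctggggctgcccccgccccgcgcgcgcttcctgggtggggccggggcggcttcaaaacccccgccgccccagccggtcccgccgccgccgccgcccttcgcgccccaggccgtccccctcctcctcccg
The Tgfb2 window held CACGTG 51 bases before the start, TATAAA 31 bases before it and CAGAC 221 and 204 bases before it, while none of these letters were in the Tgfb1 window. Among 32851 RefSeq windows of the same length, CACGTG stood in 7.15%, TATAAA in 13.6% and CAGAC in 49.6%. A match describes the sequence and is not evidence of binding.

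Tgfb2, at chr1:186354989-186438186 on the minus strand of GRCm39, encodes the TGF-beta isoform needed for heart valve and outflow tract formation in the mouse embryo. It had 16.2, 16.3, 14, 13.3 and 11.4 CPM in the 5 injured-sire libraries, against a lowest value of 10.2, a median of 11.1 and a highest value of 13.1 CPM in uninjured-sire libraries. Of the 5 injured-sire libraries, 4 were above every uninjured-sire library, and the fifth was above the uninjured-sire median. The means were 14.2 ± 2.05 CPM (SD, n = 5) in injured-sire and 11.4 ± 1.32 CPM (SD, n = 6) in uninjured-sire libraries, a log2 fold change of 0.32 ± 0.111 (SE) with a 95% interval of 0.09 to 0.55. Its unadjusted p was 0.00946 and its adjusted p 0.353 in edgeR's test. Injured-sire replicate 16, outside the comparison, was at 12.2 CPM, inside the uninjured-sire range.

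Tgfb1 and Tgfb3 gave no such separation. Tgfb1, the isoform most studied in fibrosis, had 25.2, 21.4, 27.4, 28.6 and 27.9 CPM in injured-sire libraries, against 22.5, 25.8 and 27.3 CPM as the lowest, median and highest uninjured-sire values. The injured-sire values spanned the whole uninjured-sire range, and the log2 fold change was 0.04 with a 95% interval of -0.13 to 0.21 (edgeR, adjusted p = 0.941). Tgfb3 had 22.9, 25.6, 24.7, 18.6 and 19.5 CPM in injured-sire libraries, against 19.8, 23.5 and 27.4 CPM as the lowest, median and highest uninjured-sire values. The groups overlapped, with a log2 fold change of -0.08 and an interval of -0.28 to 0.12 (edgeR, adjusted p = 0.871). Per kilobase of counted exon, Tgfb2 had the lowest level of the ligands at 2.19 CPM per kb, with Tgfb1 at 5.10 and Tgfb3 at 6.78 CPM per kb.

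The other parts of the TGF-beta pathway held no gene past an adjusted p of 0.05. Their lists were drawn up from textbook membership, but with earlier results of these data known. The counts below are therefore a description and not a test. Over all genes tested, 8.96% had an unadjusted p below 0.05 in edgeR's test. Of 5 receptor genes, all 5 had a log2 fold change above 0 and none an unadjusted p below 0.05 in edgeR's test. The median was 0.06, with Tgfbr3 (betaglycan, the co-receptor that presents TGF-beta2) at 0.11 and Acvrl1 at 0.06. Of 8 genes for latency and activation, 6 were above 0 and none had an unadjusted p below 0.05. The latent TGF-beta binding proteins Ltbp4 and Ltbp3 had the smallest p there, at log2 fold changes of 0.08 and 0.06. Among 11 Smads and regulators, 1 had an unadjusted p below 0.05 in edgeR's test, Smurf2, a ubiquitin ligase that removes Smads and receptors, at -0.12. Ski, a repressor of Smad activity, came next at 0.06. Among 8 TGF-beta target genes, 5 had a log2 fold change above 0, and the median was 0.03. Fstl1 (log2 fold change 0.16) and Col1a1 (0.18) had the smallest p-values there, each with an unadjusted p below 0.05 in edgeR's test and a higher mean in injured-sire libraries.

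Among the 12 fibroblast identity genes, 2 had an unadjusted p below 0.05 in edgeR's test (background 8.96%). These were Smoc2 and Mfap5, and they pointed opposite ways. Pdgfra, the receptor tyrosine kinase commonly used to sort cardiac fibroblasts, was at 91.8, 81.3, 73.7, 68.1 and 80.7 CPM in injured-sire libraries, against 65.7, 75.3 and 89.4 CPM as the lowest, median and highest uninjured-sire values. The groups overlapped over most of their range, and the log2 fold change of 0.07 had an interval of -0.10 to 0.24. Gsn, the actin-severing protein gelsolin and the set's most abundant gene, averaged 1632 ± 32.3 CPM in injured-sire and 1692 ± 86.2 CPM in uninjured-sire libraries (SD, n = 5 and 6). Dpt, a collagen-binding matrix protein of resting fibroblasts, averaged 121 ± 5.37 CPM in injured-sire and 122 ± 6.06 CPM in uninjured-sire libraries, with an interval of -0.13 to 0.09 for its log2 fold change.

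Smoc2, at chr17:14499768-14625052 on the plus strand of GRCm39, encodes a calcium-binding matricellular protein of the SPARC family. It had 73.3, 71.5, 72.1, 75.9 and 74.0 CPM in injured-sire libraries, against a lowest value of 70.1, a median of 83.1 and a highest value of 91.8 CPM in uninjured-sire libraries. The injured-sire values were tightly grouped and lay inside the lower part of the uninjured-sire range. The log2 fold change was -0.17 ± 0.0634 (SE), with an unadjusted p of 0.0130 and an adjusted p of 0.392 in edgeR's test. Replicate 16 was at 85.8 CPM, above every other injured-sire library and above the uninjured-sire median. With all 12 libraries the log2 fold change was -0.13 (edgeR, unadjusted p = 0.0609). Mfap5, a microfibril protein of the elastic fibre mesh and a marker of adventitial fibroblasts, had 63.2, 68.0, 61.8, 70.6 and 60.1 CPM in injured-sire libraries, against 52.8, 58.5 and 65.1 CPM as the lowest, median and highest uninjured-sire values. Of the 5 injured-sire libraries, 2 were above every uninjured-sire library, and the log2 fold change was 0.15 ± 0.0658 (SE; edgeR, unadjusted p = 0.0373, adjusted p = 0.511).

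Tcf21, the transcription factor that specifies the epicardial fibroblast lineage, showed how far a single animal could set a value. It had 9.17, 8.24, 9.43 and 9.76 CPM in injured-sire replicates 12 to 15 and 16.3 CPM in replicate 17, against 9.58, 12.5 and 13.3 CPM as the lowest, median and highest uninjured-sire values. Replicate 17 stood above every uninjured-sire library, while 3 of the other 4 stood below all of them. The log2 fold change was -0.17 (edgeR, unadjusted p = 0.270, adjusted p = 0.807), and without replicate 17 it was -0.38 (edgeR, unadjusted p = 0.00414, adjusted p = 0.249). With 1 library left out at a time, it lay between -0.38 and -0.10. Of these 11 edgeR fits, 1 had an unadjusted p below 0.05 for Tcf21. Cd248, a cell surface glycoprotein of fibroblasts and pericytes also called endosialin, had 25.3, 22.8, 26.3, 21.2 and 15 CPM in injured-sire libraries, against 17.1, 19.1 and 22.4 CPM as the lowest, median and highest uninjured-sire values. Here replicate 17 was instead the lowest of all libraries compared, and the log2 fold change of 0.20 had an interval of -0.05 to 0.44 (edgeR, unadjusted p = 0.106, adjusted p = 0.660). Without replicate 17 it was 0.31 (edgeR, unadjusted p = 0.00333, adjusted p = 0.232). With 1 library left out at a time, the Cd248 value lay between 0.13 and 0.31, and 1 of these 11 edgeR fits had an unadjusted p below 0.05. The other identity genes, Pi16 (log2 fold change -0.08), Ddr2 (0.11), Abca8a (0.09), Serpinf1 (0.03) and Dpep1 (0.01), had intervals that included 0.

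**Figure D2:**
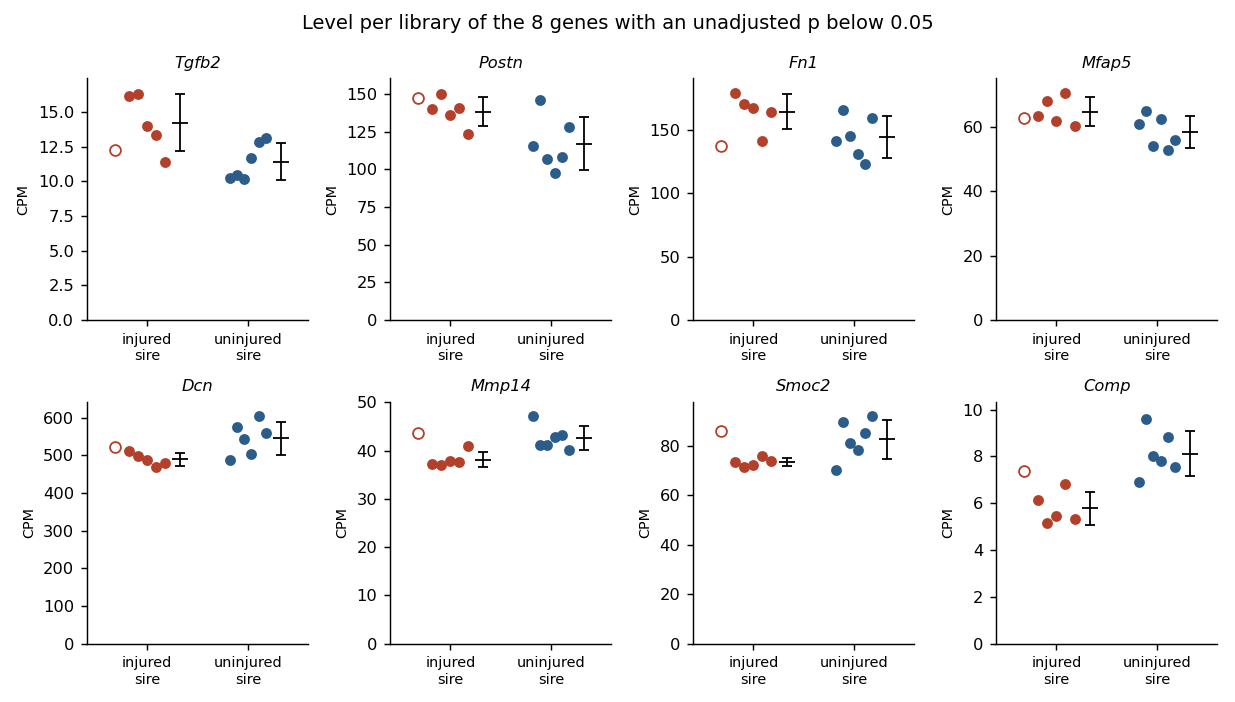
CPM per library (vertical axes) for the members with an unadjusted p below 0.05, with injured-sire libraries on the left and uninjured-sire libraries on the right of each panel; bars give the mean ± SD and the open circle is injured-sire replicate 16, outside the comparison. For Comp all 5 injured-sire values (5.15–6.84 CPM) lie below the lowest uninjured-sire value (6.91 CPM), and in the other panels the groups overlap.

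Among the genes of activated fibroblasts and the matricellular proteins, Comp and Postn had unadjusted p-values below 0.05 in edgeR's test, in opposite directions. Comp, at chr8:70826208-70834716 on the plus strand of GRCm39, encodes cartilage oligomeric matrix protein, a pentameric thrombospondin that binds collagen fibrils in tendon and cartilage. It had 6.14, 5.15, 5.45, 6.84 and 5.33 CPM in injured-sire libraries, against a lowest value of 6.91, a median of 7.93 and a highest value of 9.60 CPM in uninjured-sire libraries. All 5 injured-sire values were below all 6 uninjured-sire values. The means were 5.78 ± 0.703 CPM (SD, n = 5) in injured-sire and 8.12 ± 0.955 CPM (SD, n = 6) in uninjured-sire libraries, a ratio of 0.712 and a log2 fold change of -0.49 ± 0.130 (SE) with an interval of -0.76 to -0.22. The unadjusted p was 0.00109 and the adjusted p 0.175 in edgeR's test, and the adjusted p was 0.0475 in DESeq2's Wald test, where 0.905% of the genes with an adjusted p were called. Replicate 16, at 7.37 CPM, was above every other injured-sire library and inside the uninjured-sire range.

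Tendon, cartilage and valve genes other than Comp had no common direction. Their 10 markers, led by Cilp2 and Cytl1, summed to 62.6–79.4 CPM (median 73.3) in injured-sire and 59.8–71.8 CPM (median 68.2) in uninjured-sire libraries, and none was at 0 in all libraries. Of the 9 tested, 2 had an unadjusted p below 0.05 in edgeR's test, both with higher means in injured-sire libraries (background 4.28%). These were Chad at a log2 fold change of 1.29 and Col2a1 at 2.24. Both were low, and their groups overlapped. Chad had 0.82–6.24 CPM in injured-sire and 0.65–2.95 CPM in uninjured-sire libraries (edgeR, adjusted p = 0.443). Col2a1 had 0.09–5.97 CPM in injured-sire and 0.06–1.38 CPM in uninjured-sire libraries (edgeR, adjusted p = 0.543). Of the same 9 genes, 3 had a log2 fold change below 0: the transcription factors Sox9 (-0.33) and Scx (-0.22), and Cilp2 (-0.02).

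Postn, at chr3:54268530-54298458 on the plus strand of GRCm39, encodes periostin, the matricellular protein most used to mark activated cardiac fibroblasts. It had 140.3, 150.0, 136, 141 and 123 CPM in injured-sire libraries, against a lowest value of 97.3, a median of 112 and a highest value of 146 CPM in uninjured-sire libraries. All 5 injured-sire values were above the uninjured-sire median, and 1 was above the whole uninjured-sire range. The means were 138 ± 9.65 CPM (SD, n = 5) in injured-sire and 117 ± 17.5 CPM (SD, n = 6) in uninjured-sire libraries, a log2 fold change of 0.24 ± 0.0847 (SE) with an interval of 0.06 to 0.42 (edgeR, unadjusted p = 0.0112, adjusted p = 0.372). Replicate 16 was at 147 CPM.

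The other activation genes varied more between animals or were low. Thbs1, thrombospondin 1, an activator of latent TGF-beta, had 26.7, 33.8, 42.7, 32.6 and 32.2 CPM in injured-sire libraries, against 13.2, 25.0 and 43.0 CPM as the lowest, median and highest uninjured-sire values. It was the most variable member, every injured-sire value lay inside the uninjured-sire range, and the log2 fold change of 0.38 had an interval of -0.26 to 1.01. Without uninjured-sire replicate 22 that log2 fold change was 0.58 (edgeR, unadjusted p = 0.0349, adjusted p = 0.509). With 1 library left out at a time, it lay between 0.24 and 0.58. Of these 11 edgeR fits, 1 had an unadjusted p below 0.05 for Thbs1. Cthrc1, a secreted protein of scar fibroblasts in mouse infarcts, was the lowest member, at 21 to 59 counts per library. It had 1.24, 1.33, 1.63, 0.971 and 0.794 CPM in injured-sire libraries, against 0.602, 0.797 and 1.28 CPM as the lowest, median and highest uninjured-sire values. At that depth the log2 fold change of 0.49 had an interval of -0.22 to 1.19, so a difference was not detectable. Sparc, a collagen-binding matricellular protein, averaged 1195 ± 33.1 CPM in injured-sire and 1127 ± 97.9 CPM in uninjured-sire libraries (SD, n = 5 and 6), with an interval of -0.03 to 0.20 for the log2 fold change. Thbs4, thrombospondin 4, averaged 6.63 ± 0.954 CPM in injured-sire and 7.66 ± 1.15 CPM in uninjured-sire libraries, with an interval of -0.50 to 0.08.

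Among the 5 proteoglycans only Dcn had an unadjusted p below 0.05 in edgeR's test. Dcn, at chr10:97315471-97354005 on the plus strand of GRCm39, encodes decorin, a small leucine-rich proteoglycan that binds collagen fibrils and TGF-beta. It had 512, 499, 486, 468 and 481 CPM in injured-sire libraries, against a lowest value of 487, a median of 551 and a highest value of 604 CPM in uninjured-sire libraries. All 5 injured-sire values were below the uninjured-sire median and 3 were below the whole uninjured-sire range. The means were 489 ± 17 CPM (SD, n = 5) in injured-sire and 545 ± 43.9 CPM (SD, n = 6) in uninjured-sire libraries, a ratio of 0.898 and a log2 fold change of -0.15 ± 0.0559 (SE) with an interval of -0.27 to -0.04 (edgeR, unadjusted p = 0.0115, adjusted p = 0.372). Replicate 16, at 523 CPM, was inside the uninjured-sire range.

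The remaining proteoglycans gave intervals around 0. Lum, lumican, the neighbour of decorin in the same gene family, averaged 101 ± 9.27 CPM in injured-sire and 108 ± 16.6 CPM in uninjured-sire libraries, with a log2 fold change of -0.09 and an interval of -0.29 to 0.10. Bgn, biglycan, had an interval of -0.12 to 0.15, Vcan, the large hyaluronan-binding proteoglycan versican, one of -0.23 to 0.17, and Fmod, fibromodulin, one of -0.46 to 0.34. Of 7 other small leucine-rich proteoglycans, 6 were tested. Podn, podocan, had the smallest p of these, at a log2 fold change of 0.17 (edgeR, unadjusted p = 0.00627, adjusted p = 0.311), opposite to Dcn, and Ecm2 came next at -0.14.

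Among the 6 fibre and adhesion glycoproteins, 5 had a log2 fold change above 0 and 1, Fn1, an unadjusted p below 0.05 in edgeR's test. Fn1, at chr1:71624679-71692359 on the minus strand of GRCm39, encodes fibronectin, the adhesive glycoprotein on which other matrix fibres are laid down. It had 179, 170.4, 168, 142 and 164 CPM in injured-sire libraries, against a lowest value of 123, a median of 143 and a highest value of 166 CPM in uninjured-sire libraries. Of the 5 injured-sire libraries, 3 were above every uninjured-sire library and replicate 15 was below the uninjured-sire median. The means were 165 ± 14 CPM (SD, n = 5) in injured-sire and 145 ± 16.4 CPM (SD, n = 6) in uninjured-sire libraries, a log2 fold change of 0.19 ± 0.0740 (SE; edgeR, unadjusted p = 0.0196, adjusted p = 0.424). Replicate 16 was at 137 CPM, and with all 12 libraries the unadjusted p was 0.0716 at a log2 fold change of 0.15.

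Eln, at chr5:134731447-134776177 on the minus strand of GRCm39, encodes elastin, the core protein of elastic fibres, which smooth muscle cells of arteries also make. It had 968, 1120.4, 963, 866 and 1103 CPM in injured-sire libraries, against a lowest value of 520.2, a median of 818 and a highest value of 987 CPM in uninjured-sire libraries. All 5 injured-sire values were above the uninjured-sire median and 2 were above the whole uninjured-sire range. Uninjured-sire replicate 20 had the lowest value, with the next uninjured-sire library at 715 CPM. The means were 1004 ± 106 CPM (SD, n = 5) in injured-sire and 805 ± 176 CPM (SD, n = 6) in uninjured-sire libraries, a coefficient of variation of 10.6% in injured-sire and 21.9% in uninjured-sire libraries. The log2 fold change was 0.32 ± 0.159 (SE) with an interval of -0.04 to 0.68 (edgeR, unadjusted p = 0.0751, adjusted p = 0.605), and without replicate 20 it was 0.22 (edgeR, unadjusted p = 0.0333, adjusted p = 0.612). With 1 library left out at a time, it lay between 0.22 and 0.38. Of these 11 edgeR fits, 3 had an unadjusted p below 0.05 for Eln.

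The summed level of smooth muscle and pericyte markers did not overlap between the groups, although none of the 8 passed the adjusted test (smallest adjusted p = 0.192, edgeR). Taken singly, each of the 8 had groups that overlapped. The list was chosen with earlier results of these data known, so the sum is a description and not a test. The 8 markers, led by Rgs5 and Acta2, summed to 1692–1957 CPM (median 1784) in injured-sire and 1394–1666 CPM (median 1595) in uninjured-sire libraries, and none of them was at 0 in all libraries. Replicate 16 summed to 1715 CPM, and uninjured-sire replicate 20, the lowest for Eln, was also the lowest for these markers. Of the 8, 5 had higher means in injured-sire libraries at an unadjusted p below 0.05 in edgeR's test (background 4.28%) and 1, Kcnj8, a lower mean (background 4.68%). The contractile genes Tagln (log2 fold change 0.45) and Myh11 (0.47) were among the higher ones, and so was the pericyte marker Cspg4 (0.17). The pericyte markers Rgs5 (0.006), Pdgfrb (0.07) and Kcnj8 (-0.16) were not. Acta2, smooth muscle actin, which activated fibroblasts also make, had a log2 fold change of 0.38 (edgeR, adjusted p = 0.192). The part of these cells in the Eln, Fn1, Postn, Mfap5 and Tgfb2 values was not tested.

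**Figure D3:**
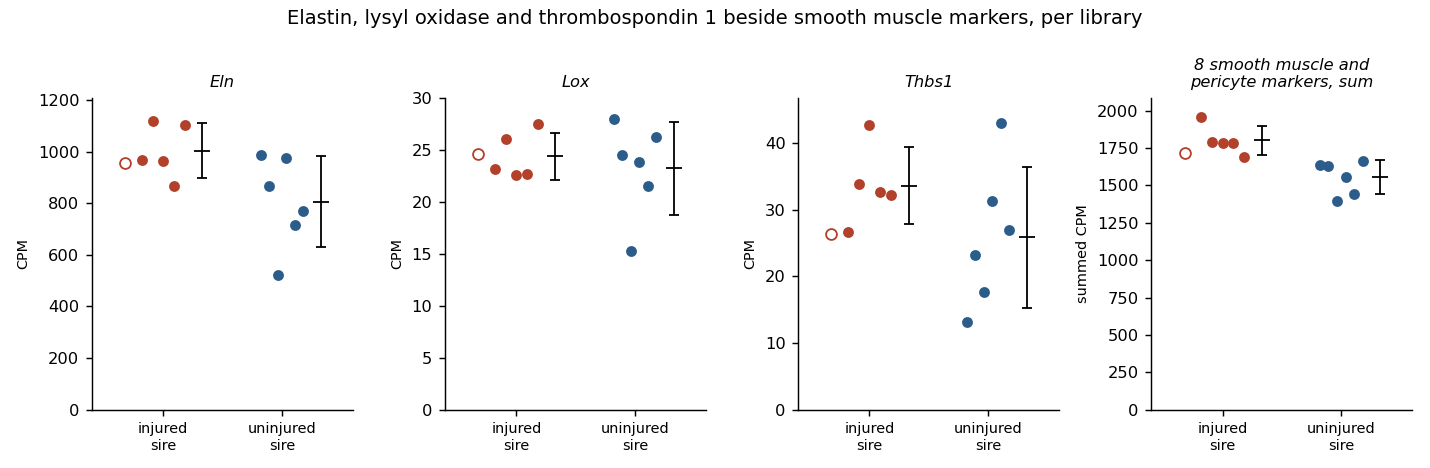
CPM per library (vertical axes) for Eln, Lox and Thbs1 and summed CPM of 8 smooth muscle and pericyte markers, with injured-sire libraries on the left and uninjured-sire libraries on the right of each panel; bars give the mean ± SD and the open circle is injured-sire replicate 16, outside the comparison. The groups overlap for the 3 genes, while the marker sums (1692–1957 CPM in injured-sire and 1394–1666 CPM in uninjured-sire libraries) do not.

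Mfap4, a microfibril-associated protein that binds elastin, had 76.8, 75.1, 68.9, 72.0 and 70.2 CPM in injured-sire libraries, against 54.2, 66.4 and 74.7 CPM as the lowest, median and highest uninjured-sire values. The groups overlapped, with 2 injured-sire values above the uninjured-sire range and a log2 fold change of 0.14 (edgeR, unadjusted p = 0.0554, adjusted p = 0.574). Fbln1, fibulin 1, a glycoprotein of elastic fibres and basement membranes, was the one member of this role below 0, averaging 149 ± 5.36 CPM in injured-sire and 159 ± 6.71 CPM in uninjured-sire libraries (SD, n = 5 and 6). Of the 5 injured-sire libraries, 4 were below the whole uninjured-sire range, and the log2 fold change was -0.10 (edgeR, unadjusted p = 0.0730, adjusted p = 0.605). Fbn1, fibrillin 1, the backbone of microfibrils, had an interval of -0.08 to 0.20, and Ltbp2, a latent TGF-beta binding protein family member that joins microfibrils, one of -0.24 to 0.49. Of 9 elastic fibre partners outside the set, such as Emilin1 (log2 fold change -0.10) and Fbln2 (0.09), none had an unadjusted p below 0.05 in edgeR's test. The fibrillar collagens, which share the fibres with these proteins, had log2 fold changes above 0 for 6 of 6 genes, with a median of 0.16. For 3 of them the unadjusted p was below 0.05 in edgeR's test (background 4.28% with higher means), led by Col5a2 at 0.16 and Col1a1 at 0.18, and the smallest adjusted p was 0.394.

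The 3 crosslinkers, copper enzymes that oxidise lysines of collagen and elastin so that the fibres bond, stood near equality. Lox averaged 24.4 ± 2.27 CPM in injured-sire and 23.2 ± 4.45 CPM in uninjured-sire libraries (SD, n = 5 and 6), with an interval of -0.18 to 0.32 for its log2 fold change. Loxl1, which is needed for elastic fibre upkeep in the mouse, averaged 70.8 ± 5.28 CPM in injured-sire and 70.8 ± 4.32 CPM in uninjured-sire libraries, with an interval of -0.13 to 0.13. Loxl2, which acts mainly on collagen, averaged 40.1 ± 3.03 CPM in injured-sire and 39.1 ± 2.86 CPM in uninjured-sire libraries, with an interval of -0.11 to 0.18. In uninjured-sire replicate 20, the library lowest for Eln, Lox (15.3 CPM) and Loxl1 (62.3 CPM) were also at their lowest. Of 9 genes that fold and process collagen, 8 had log2 fold changes below 0, most of them near 0, with a median of -0.03. The collagen chaperone Serpinh1, at -0.17, and the prolyl hydroxylase P4ha1, at -0.24, had unadjusted p-values below 0.05 in edgeR's test (background 4.68% with lower means). The smallest adjusted p of the list was 0.397 in that test. The fibrillar collagens that these genes serve had log2 fold changes above 0.

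Among the proteases and inhibitors, Mmp14 had the smallest p. Mmp14, at chr14:54669069-54682821 on the plus strand of GRCm39, encodes a membrane-bound metalloprotease that cleaves collagen and activates pro-MMP2. It had 37.3, 37.0, 37.8, 37.6 and 40.9 CPM in injured-sire libraries, against a lowest value of 40.2, a median of 42.1 and a highest value of 47.1 CPM in uninjured-sire libraries. Of the 5 injured-sire libraries, 4 were below the whole uninjured-sire range and replicate 17 was just inside it. The means were 38.1 ± 1.58 CPM (SD, n = 5) in injured-sire and 42.6 ± 2.47 CPM (SD, n = 6) in uninjured-sire libraries, a log2 fold change of -0.16 ± 0.0624 (SE; edgeR, unadjusted p = 0.0164, adjusted p = 0.404). Replicate 16, at 43.7 CPM, was above the uninjured-sire median, and with all 12 libraries the unadjusted p was 0.0532.

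Its substrate Mmp2, gelatinase A, averaged 137 ± 10.4 CPM in injured-sire and 141 ± 12.1 CPM in uninjured-sire libraries (SD, n = 5 and 6), with an interval of -0.17 to 0.09 for its log2 fold change. Timp2, the inhibitor that also bridges Mmp14 and pro-MMP2, had 205, 198, 206, 198 and 184 CPM in injured-sire libraries, against 167, 180.5 and 199 CPM as the lowest, median and highest uninjured-sire values. The groups overlapped, and the log2 fold change was 0.11 (edgeR, unadjusted p = 0.0555, adjusted p = 0.574). Of the exon bases of Timp2, 7.84% overlap another gene on the same strand, the largest share in the set, so a small part of its counts is uncertain. Timp1, the inhibitor induced in injured hearts, was low, at 3.10 ± 0.716 CPM in injured-sire and 3.09 ± 0.483 CPM in uninjured-sire libraries, and its interval ran from -0.40 to 0.41.

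Of 16 metalloproteases and inhibitors outside the set, 3 had higher (background 4.28%) and 3 lower means (background 4.68%) in injured-sire libraries at an unadjusted p below 0.05 in edgeR's test. Mmp11, stromelysin 3, averaged 7.35 ± 0.366 CPM in injured-sire and 10.2 ± 1.76 CPM in uninjured-sire libraries (SD, n = 5 and 6), and the groups did not overlap. Its log2 fold change was -0.47 ± 0.125 (SE; edgeR, adjusted p = 0.183). Timp3, an inhibitor held in the matrix, averaged 415 ± 29.9 CPM in injured-sire and 354 ± 42.0 CPM in uninjured-sire libraries, a log2 fold change of 0.23 (edgeR, adjusted p = 0.291).

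Levels within the set spanned a wide range once divided by counted exon length. Averaged over both groups, Gsn stood at 527 CPM per kb, Sparc at 306, Eln at 111, Dcn at 89.0 and Dpt at 70.5. Timp2, Lum and Mmp2 followed closely at 44.8, 42.9 and 41.4 CPM per kb, then Bgn at 39.3, Mfap4 at 35.8 and Fbln1 at 35.4. The middle of the order held Postn at 14.5, Fn1 at 13.2, Smoc2 at 11.3 and Mmp14 at 6.81 CPM per kb. The low end held Comp at 2.38, Tgfb2 and Thbs4 at 2.19 each, Vcan at 1.98, Ltbp2 at 0.959 and Cthrc1 at 0.631 CPM per kb. Of the 5 highest per kb, 1 (Dcn) had an unadjusted p below 0.05 in edgeR's test, close to the share of the whole set.

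**Figure D4:**
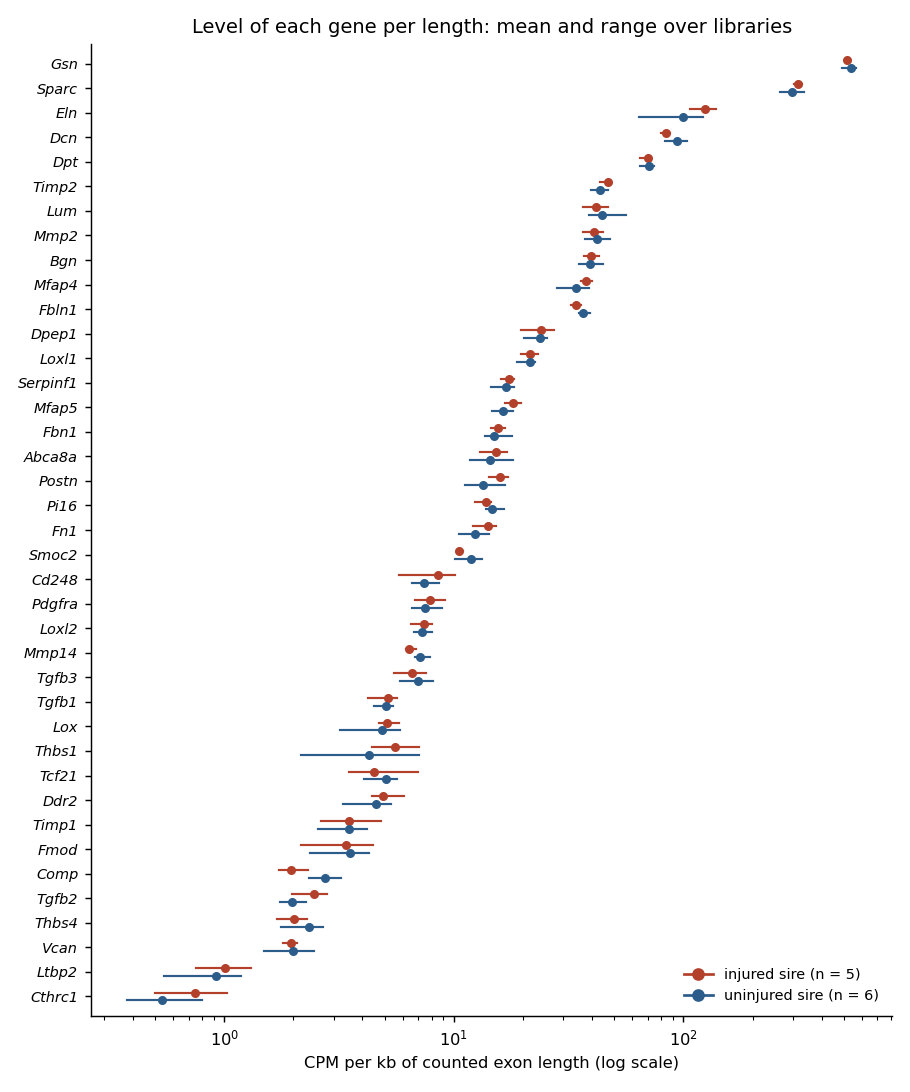
Mean level per kilobase of counted exon (horizontal log axis, CPM per kb) of the 39 genes, with injured-sire libraries in red above uninjured-sire libraries in blue; points are means and lines run from the lowest to the highest library. The order runs from Gsn at 527 CPM per kb to Cthrc1 at 0.631 CPM per kb, and the lines of the 2 groups overlap for every gene but Comp.

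Libraries differed in how many of the 39 genes they held above that gene's median over the 11 libraries compared. In injured-sire libraries the count was 22, 24, 20, 16 and 13 for replicates 12, 13, 14, 15 and 17, and in uninjured-sire libraries it was between 13 and 24. The groups overlapped in this count. Uninjured-sire replicate 20 had the lowest value of the 11 libraries for 9 genes, and uninjured-sire replicate 19 the highest for 8. Injured-sire replicate 13 had both extremes, with the highest value for 7 genes and the lowest for 7. No library therefore stood high or low across the whole set.

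**Figure D5:**
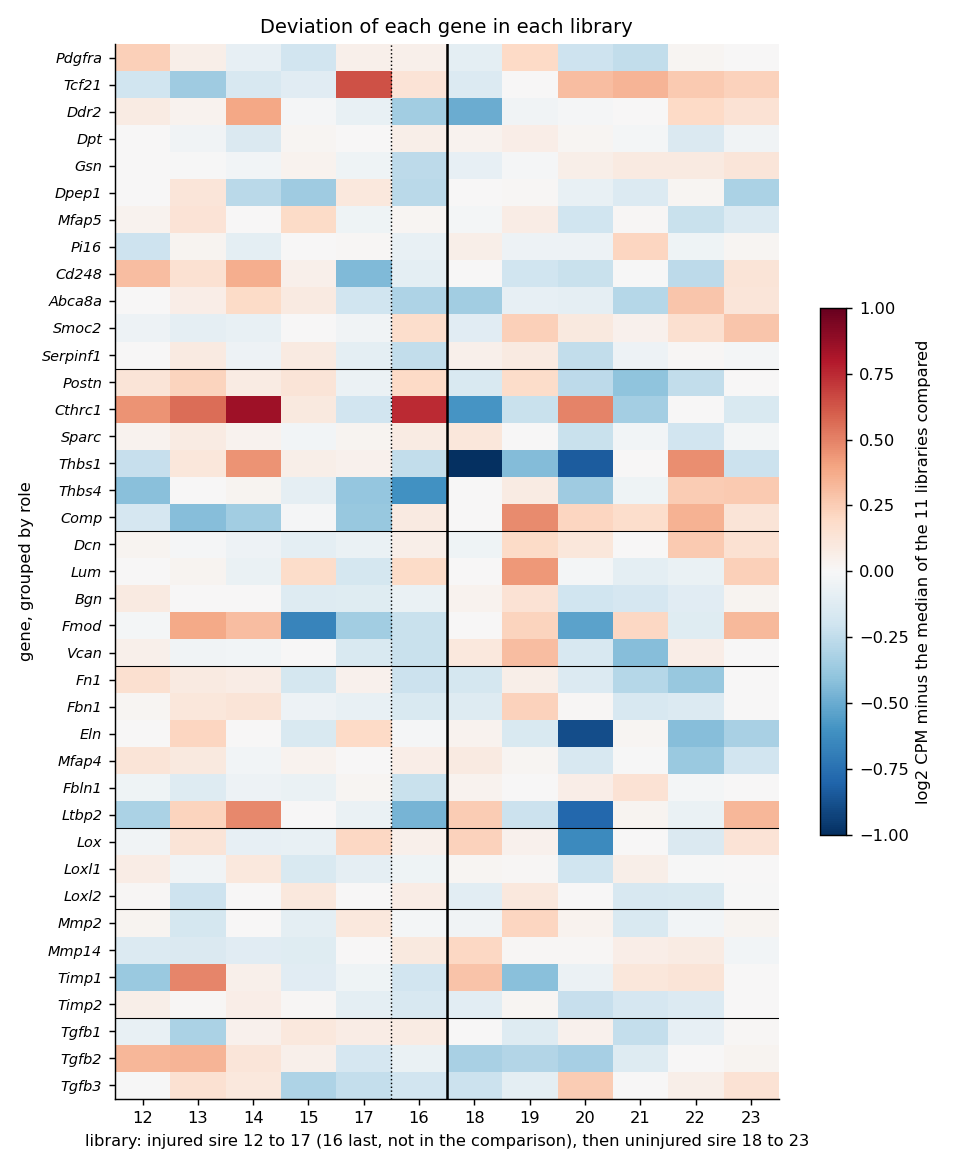
Deviation of each gene's log2 CPM from its median over the 11 libraries compared (colour), with genes in rows by role and libraries in columns, injured-sire on the left and uninjured-sire on the right, replicate 16 apart. Uninjured-sire replicate 20 has the lowest value for 9 of the 39 genes, and Comp is below its median in the injured-sire columns.

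Other cell types, also of tissues other than ventricle, were followed through their markers, none of which was at 0 in all libraries. Endothelial markers summed to 1089–1248 CPM in injured-sire and 1125–1220 CPM in uninjured-sire libraries, and macrophage markers to 130.5–168 CPM in injured-sire and 143–178 CPM in uninjured-sire libraries. Of the 8 macrophage markers, 3 had an unadjusted p below 0.05 in edgeR's test, all with lower means in injured-sire libraries (background 4.68%): Cx3cr1 (log2 fold change -0.71), Fcgr1 (-1.05) and C1qa (-0.24), with a smallest adjusted p of 0.229. Epicardial markers summed to 30.4–57.3 CPM in injured-sire and 23.4–65.5 CPM in uninjured-sire libraries, and glial markers to 19.1–46.3 CPM in injured-sire and 15.2–32.3 CPM in uninjured-sire libraries. Fat markers, led by Ucp1 and Cidea, summed to 110.2–441 CPM in injured-sire and 37.3–332 CPM in uninjured-sire libraries. Airway and lung markers, led by Scgb1a1 and Cyp2f2, summed to 31.8–473 CPM (median 189.8) in injured-sire and 0.435–291 CPM (median 2.14) in uninjured-sire libraries, with 0.461 CPM in replicate 16. All of these ranges overlapped, and the part of these cells in the members' values was not tested.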

How the data were processed

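Raw read counts per gene were deposited by the authors as one table made with featureCounts 2.1.1 on Ensembl release 114 of GRCm39 at strand setting 2, without a paired-end or multi-mapping option, per the file headers. STAR 2.7.10a and Subread 2.0.3 are named in the submitters' processing notes. The table's 11 columns of other samples were not used. Of 78317 gene IDs, 51487 matched a symbol of the GENCODE M21 annotation, used for names only, and these held 99.3% of counts.

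The members and gene lists were chosen with earlier results of these data known. Genes were kept by filterByExpr (minimum count 10, minimum total 15), scaled by TMM and fitted with edgeR 4.0.16 (robust quasi-likelihood F test, limma 3.58.1, R 4.3.3) on 5 injured-sire and 6 uninjured-sire libraries without covariates. P-values were adjusted by Benjamini-Hochberg over all 17130 genes at a threshold of 0.05. The prior count for log2 CPM was 2. Intervals are 95% confidence intervals, with a median reach of 0.262 log2 units over all genes. The fits were tested on simulated data. Differences in levels between genes use CPM per kb of counted exon length. Of the 39 members, 23 had an entry in the RefSeq promoter table (GRCm38.p6).

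The text names all 39 members, of each pathway list the 2 genes with the smallest p and any called gene, and of each marker list the summed CPM and the 2 markers with the highest mean. Genes named beyond that rule, such as Chad, Col2a1, Kcnj8 and Cx3cr1, were chosen after their values were seen, and 1 gene of a pathway list is not reported here. The 22 alternatives covered the inclusion of replicate 16, the removal of single libraries, other scalings, filters, thresholds and tests (DESeq2 1.42.0, limma voom), a sex-linked covariate and removal of mitochondrial genes. No replicate number occurs in both groups.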

Additional observations from a re-analysis of the deposited data

Results flagged for a closer look

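Of 78 groups of values checked (39 genes in each of the 2 groups), 3 held a library whose gap to its nearest neighbour was large for the group's range. Chance gives about 1 in 20 groups. Tcf21 stood at 16.3 CPM in injured-sire replicate 17, with the next injured-sire library at 9.76 CPM, a gap of 0.812 of the group's range against a critical value of 0.71. Mmp14 stood at 40.9 CPM in the same library, with the next at 37.8 CPM and a gap of 0.775 of the range. Loxl1 stood at 62.3 CPM in uninjured-sire replicate 20, with the next uninjured-sire library at 71.5 CPM, a gap of 0.744 of the range against a critical value of 0.625.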

How the results depend on the processing

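The count of members past an adjusted p of 0.05 was 0 in every alternative except DESeq2's Wald test, where it was 1 (Comp, adjusted p = 0.0475). At an unadjusted p below 0.05 stood 8 members (background 8.96%), with 7 to 12 when 1 library was left out (12 without injured-sire replicate 17). With all 12 libraries it was 7 members (background 8.17%). The members below 0.05 were not the same in every fit. Comp, Dcn, Postn and Tgfb2 were below 0.05 unadjusted in all 22 alternatives. One of these, the threshold of 0.1, reused the main fit, so its p-values could not differ. The median member log2 fold change of 0.03 was -0.01 without uninjured-sire replicate 20 and at most 0.05 when another library was left out. Over all genes, 18 calls became 134 with DESeq2, 236 with no filter, 28 with at least 1 CPM in 5 libraries and 49 at a threshold of 0.1, and between 8 and 43 when 1 library was left out (8 without injured-sire replicate 13, 43 without uninjured-sire replicate 22). The cause was not tested.

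Of 857 member values, those at the threshold of 0.1 were the main fit's own and could not turn sign. Signs turned in 39 of the 857 values, in 10 members whose log2 fold changes were near 0. With all 12 libraries these were Dpep1 (-0.0195), Loxl1 (-0.00503), Serpinf1 (-0.0062) and Timp1 (-0.0311). With upper-quartile scaling they were Loxl1 (-0.00919) and Timp1 (-0.00525), and with limma voom Dpep1 (-0.00235), Loxl1 (-0.000659) and Vcan (0.0027). With no filter they were Bgn (-0.00462), Dpep1 (-0.00602), Loxl1 (-0.0186) and Timp1 (-0.0138), and without mitochondrial genes Loxl1 (-0.00281). With 1 library left out, the log2 fold change lay between -0.0205 and 0.054 for Bgn, -0.0397 and 0.0753 for Dpep1, -0.0421 and 0.00851 for Dpt, -0.178 and 0.066 for Fmod, -0.0238 and 0.131 for Lox, -0.0339 and 0.031 for Loxl1, -0.0743 and 0.00466 for Mmp2, -0.00683 and 0.0586 for Serpinf1, -0.137 and 0.0876 for Timp1, and -0.0982 and 0.0437 for Vcan. Cthrc1 was not tested at a minimum of 1 CPM in 5 libraries. No paired analysis was possible because no replicate number occurs in both groups.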
